A study of Mus musculus with 13 samples.

Results

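The activator arm of the circadian clock was measured in mouse aorta as the transcripts of Arntl (also called Bmal1), Clock and Npas2. The members were chosen by gene name: each probe set (a group of short oligonucleotides that report 1 transcript) that the platform annotation assigns to these genes was taken. There was 1 probe set for each, so 3 of the 12422 probe sets that were not controls, and none of the 3 carries a suffix that marks cross-hybridisation. All groups were aortae of c57/Bl6 mice, an inbred laboratory strain, with no allele or agent that differed between them, and the labels give neither age nor sex. Before sampling, the animals spent 2 weeks with light for 12 h a day and dark for the other 12 h, followed by 36 h without light. Each of 12 time points, 4 h apart from circadian time (CT) 18 to CT62, was a pool of 6 aortae, so the animals within a pool cannot be told apart. CT18 had 2 arrays, which the labels do not tie to one pool or to separate pools. They were averaged and counted as 1 pool, so there were 13 arrays in all. The sampling spanned 2 cycles, and each of 6 circadian times was met by 2 pools 24 h apart (for example, CT34 and CT58 are both circadian time 10).

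The proteins encoded by Arntl and Clock are transcription factors of the basic helix-loop-helix PAS family that pair with each other and bind E-boxes, short DNA elements near the genes they switch on. Npas2 encodes a relative of the Clock protein that can take its place in the pair. Among the genes the pair activates are the Per and Cry genes, whose products inhibit the pair, and Nr1d1 and Nr1d2 (REV-ERB alpha and beta), nuclear receptors that bind RORE elements and repress Arntl. In blood vessels, as in other tissues, Arntl is known as a gene without which the clock stops.

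The aorta label was checked against markers. Of the smooth muscle markers 5 of 6, and of the endothelial markers 8 of 8, were measured above the intensity filter. The summed intensity over the 12 pools was 9043 to 14394 for smooth muscle and 1768 to 3143 for endothelium. Adipocyte markers (5 genes) summed to 29604 to 37162. Skeletal muscle markers (8 of 8 measured) ran from 4987 at CT54 to 22974 at CT34, thymocyte markers (7 of 9) from 343 at CT42 to 4168 at CT54, and atrial markers (3 of 4) from 2589 at CT30 to 8793 at CT42. In a pool of whole tissue, fewer cells of a type and less RNA per cell cannot be told apart.

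The DNA around the starts of these genes is shown first because the REV-ERB receptors and the activator pair act by binding DNA. No binding was measured here. The sequences are those of RefSeq (mouse build GRCm38.p6), in windows from 250 bases before to 50 bases after each annotated start. The letters searched, on both strands, were TAGGTCA and its variant TAGGTTA (the core of a RORE), CACGTG (the E-box) and its variant CACGTT, and TTATGNAA (the D-box, bound by Dbp, Tef and Nfil3). None of these words is contained in another. They occur in 2.61%, 1.44%, 7.15%, 4.68% and 3.38% of all 32851 windows, in that order. The words were chosen with the Arntl windows in view, and a match is a description of the letters only. Arntl has 2 overlapping windows. In the later one, 1 RORE core runs up to the start base and 1 lies after it. Capitals mark the core, and both sites read along the strand of the gene.
Arntl RORE core variant, chr7:113207494-113207523 (plus strand): tggtcggaaagTAGGTTAgtggtgcgacat
Arntl RORE core, chr7:113207530-113207559 (plus strand): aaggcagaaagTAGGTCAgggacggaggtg
The variant begins 6 bases before the later start and 40 bases after the earlier one, and the second core begins 30 bases after the later start. The 3 Clock windows and the 1 Npas2 window held none of the words searched. For 4 other clock genes described here 1 site each is shown, with capitals for the word found on either strand.
Nfil3 RORE core, chr13:52981033-52981062 (minus strand): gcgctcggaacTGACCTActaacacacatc
Nr1d1 E-box variant, chr11:98775388-98775417 (minus strand): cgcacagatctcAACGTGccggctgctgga
Cry1 E-box, chr10:85185097-85185126 (minus strand): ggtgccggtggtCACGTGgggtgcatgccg
Tef E-box, chr15:81802534-81802563 (plus strand): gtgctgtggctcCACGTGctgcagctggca
In Nfil3 the core lies on the strand opposite to the gene and begins 12 bases before the start. Sites not printed were an E-box variant in Cry1, an E-box in the second window of Tef, and an E-box and a D-box word in Per1. The windows of Nr1d2, Dbp, Ppara, Nampt and Usp2 held none of the words. DNA outside the windows was not searched, so this does not show that these genes lack such elements. Per2 had no window in the sequences used and was not searched.

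The values were deposited intensities, 1 per probe set and array. They already had the same trimmed mean on every array (200.2), and 21.3% to 24.2% of an array's values were at or below 0. Values under 36.7 (the 20th percentile of positive values, called the floor here) were set to it before log2 was taken. A probe set was tested if its mean over pools was among the highest 60% (an intensity of at least 48.5). Arntl and Clock passed this filter, and Npas2 did not. The 2 CT18 arrays correlated at r = 0.944 over the 7453 probe sets tested, and 0 of these had exactly the same deposited value on both. As a sign of RNA integrity, the 3' probe set of actin read 1.64 to 2.21 times its 5' probe set, and that of Gapdh 1.05 to 1.31 times.

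Arntl (probe set 102382_at) was highest at circadian time 22 and lowest at circadian time 10 on both days. On the first day its intensity was 176 at CT18, 274 at CT22, 159 at CT26, 181 at CT30, 74.0 at CT34 and 160 at CT38. On the second day it was 211 at CT42, 308 at CT46, 150 at CT50, 134 at CT54, 45.5 at CT58 and 88.3 at CT62. The pools of circadian time 22 lay above all the others and the pools of circadian time 10 below all the others, and no pool was at the floor. The fold between circadian times 22 and 10 was 5.0 from the geometric means of 2 pools each, 3.70 on the first day and 6.76 on the second.

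The levels of Arntl by circadian time, as mean ± SD of 2 pools, were ordered as follows. Circadian time 22 (291 ± 24.4) stood above circadian time 18 (193 ± 24.5), and their pools did not overlap. Circadian times 18, 6 (158 ± 33.0), 2 (155 ± 6.85) and 14 (124 ± 50.4) each overlapped with the next in this order, so these neighbours were not separated by the spread between days. Circadian time 10 (59.8 ± 20.1) did not overlap with circadian time 14. The widest gap between days was at circadian time 14, where the second-day pool measured 0.553 times the first.

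Clock (probe set 92257_at) varied less. Its intensity on the first day was 261 at CT18, 305 at CT22, 278 at CT26, 222 at CT30, 155 at CT34 and 254 at CT38. On the second day it was 341 at CT42, 247 at CT46, 241 at CT50, 173 at CT54, 192 at CT58 and 282 at CT62. The 3 lowest pools were CT34, CT54 and CT58, all at circadian times 6 and 10, and the highest was CT42. The fold between circadian times 18 and 10 was 1.72, with 1.68 on the first day and 1.77 on the second.

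By circadian time Clock was 301 ± 56.9 at 18, 276 ± 40.8 at 22, 268 ± 19.7 at 14, 260 ± 26.05 at 2, 197 ± 34.1 at 6 and 174 ± 26.1 at 10 (mean ± SD, n = 2 pools each). Each neighbour in this order overlapped with the next, apart from circadian times 2 and 6. The 2 CT18 arrays measured 233 and 291 for Clock, a difference of 0.32 (log2). The median difference between Clock pools 24 h apart was 0.31, so the gap between 2 arrays of one time point was as wide as that between days. For Arntl the same 2 arrays measured 175 and 177.

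Npas2 (probe set 95390_at) gave an intensity below 0 on 13 of 13 arrays. The lowest was -293 at CT42, the median -198 and the highest -151 at CT38. The CT18 arrays read -223 and -263. Its mean of -204 ± 45.7 (SD, n = 13 arrays) was at the 1.74th percentile of all probe sets, and 1225 of the 12422 probe sets (9.86%) were also below 0 on every array. The 5th percentile of an array lay between -152 and -69.2, so Npas2 stood under the bulk of the values on most arrays. All 12 pools were at the floor, so no rhythm could be fitted and no fold is given. An intensity below 0 is a bound, and it does not show whether aorta holds Npas2 transcript.

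**Figure D1:**
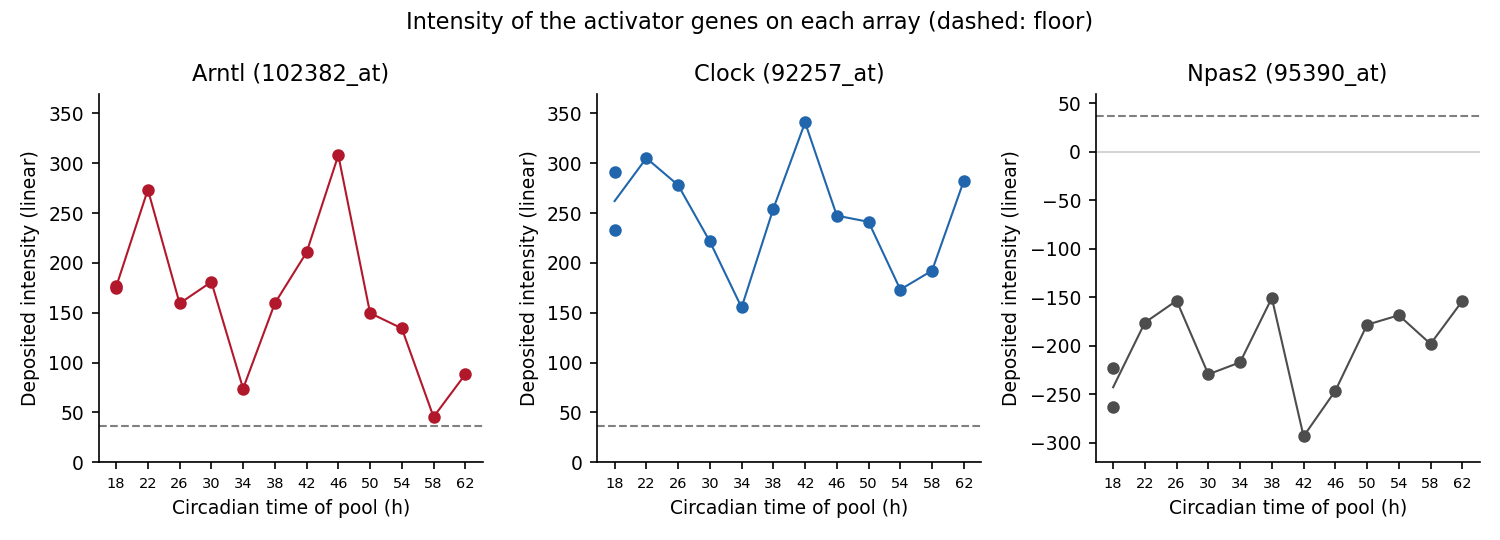
Deposited intensity (linear) of Arntl, Clock and Npas2 against the circadian time of the pool in hours; points are arrays, lines join the pool means, and the dashed line is the floor of 36.7. Arntl ran from 45.5 at CT58 to 308 at CT46, Clock from 155 at CT34 to 341 at CT42, and Npas2 stayed below 0 throughout.

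The series asks which aortic transcripts keep a 24-h rhythm without light. Neither activator passed that test when adjusted over all genes, although Arntl had a larger fitted swing than nearly all probe sets. A cosine of 24 h gave Arntl a mean-to-peak amplitude (log2) of 0.89 ± 0.18 (SE, 12 pools), a peak-to-trough fold of 3.43, and a peak at CT22.1 ± 0.78 h (limma moderated F test, adjusted p = 0.115, unadjusted p = 0.00116). For Clock the amplitude was 0.37 ± 0.10, the fold 1.67 and the peak CT19.9 ± 0.99 h (limma, adjusted p = 0.293, unadjusted p = 0.00731). Of all 7453 probe sets tested 26 passed (0.349%), so 0 of the 2 activators tested passed against this background. At an unadjusted p below 0.05 both were called, where 9.96% of all probe sets were.

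In the order of amplitudes Arntl was number 79 of 7453 and Clock number 1290. The median amplitude over all probe sets was 0.18, and the 26 that passed ran from 0.35 to 1.95. By p, Arntl was number 75 and Clock number 186. The share of the variance over the pools that the cosine took up (R2) was 0.697 for Arntl and 0.660 for Clock. For each probe set taken alone, a permutation test of R2 (100000 permutations of the time points, one-sided, not adjusted) gave p = 0.00171 for Arntl and p = 0.00651 for Clock. These genes were picked with earlier results known, so these 2 single values do not replace the adjusted p.

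**Figure D2:**
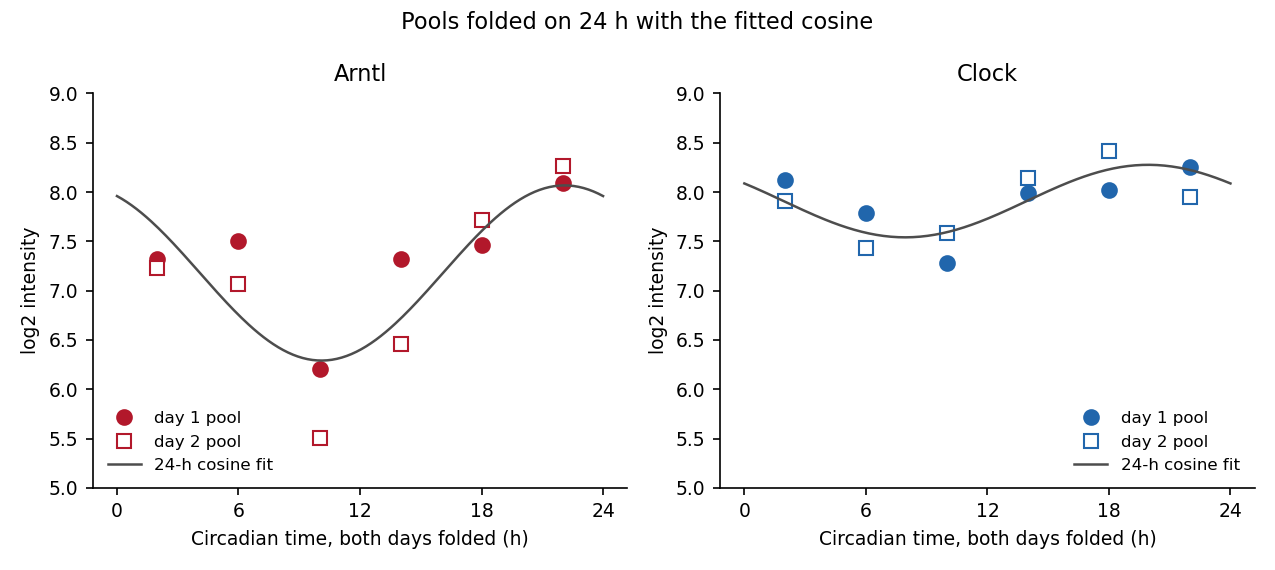
log2 intensity of Arntl and Clock against circadian time with both days folded on 24 h; filled circles are first-day pools, open squares second-day pools, and the line is the fitted cosine. The fitted amplitude is 0.89 for Arntl and 0.37 for Clock, and the second-day Arntl pools of circadian times 10 and 14 lie below those of the first day.

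Leaving out each pool in turn moved the amplitude of Arntl between 0.71 (without CT58) and 0.98 (without CT30). The adjusted p of Arntl was below the threshold of 0.05 in 1 of these 12 fits, that without CT30 (limma, adjusted p = 0.0484). Clock ran from 0.31 (without CT34) to 0.42 (without CT46) and passed in 0 of them. The pools with the lowest Arntl, CT34 and CT58, were also high in skeletal muscle markers (22974 and 16366 summed). The third muscle-rich pool, CT18 (17333), had an Arntl intensity of 176, above 7 of the other pools. The mean log2 of the endothelial markers had r = 0.613 with Arntl and 0.539 with Clock over the 12 pools. That of the skeletal muscle markers had -0.347 and -0.331. The endothelial markers taken singly ran from r = -0.490 (Vwf) to 0.672 (Cldn5) with Arntl. The part of endothelial RNA in the result was not tested. With the marker means of skeletal muscle, thymocytes and atrium in the fit, Arntl had 0.94 ± 0.24 and CT22.2 (limma, adjusted p = 0.293). Clock had 0.40 ± 0.14 and CT18.5 (adjusted p = 0.473). Without CT18, CT34 and CT58 together Arntl had 0.62 ± 0.21 and a peak at CT22.0 (limma, adjusted p = 0.587), a fit that holds no pool of circadian time 10.

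**Figure D3:**
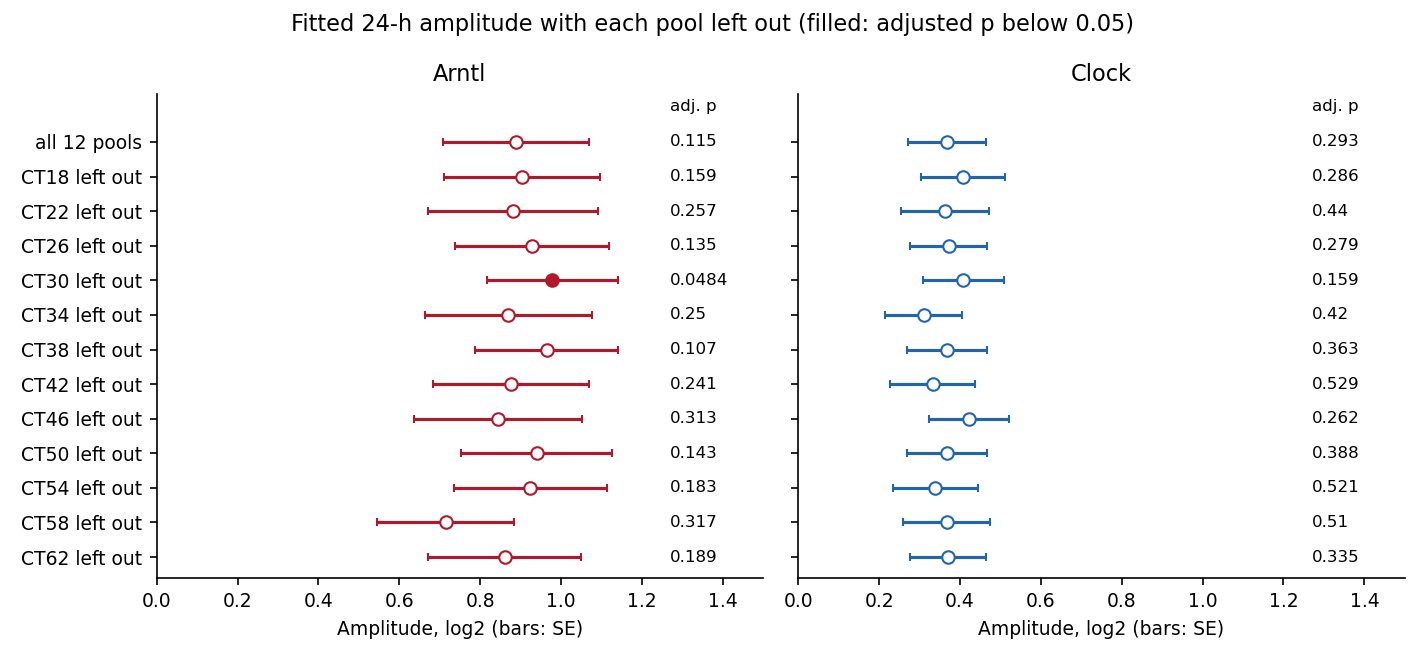
Fitted 24-h amplitude (log2, bars are SE) of Arntl and Clock over all pools and with each pool left out; the numbers are adjusted p-values of limma, and filled points have an adjusted p below 0.05. The only filled point is Arntl without CT30 (0.98, adjusted p = 0.0484).

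The second day of sampling was compared with the first because levels and rhythms can drift in continuing darkness. Arntl averaged 7.32 (log2) over the 6 first-day pools and 7.04 over the 6 second-day pools. The second-day minus first-day difference was -0.27 ± 0.25 (SE; limma, adjusted p = 0.810), and 2 of 6 pairs of pools 24 h apart were higher on the second day. For Clock the means were 7.91 on both days and the difference was -0.0026 ± 0.14 (limma, adjusted p = 0.996), with 3 of 6 pairs higher. Over all probe sets 0 of 7453 passed (0%), and 7.54% had an unadjusted p below 0.05. An ordinary F test called 0 as well.

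Fitted to each day alone, Arntl peaked at CT22.1 on both, with amplitudes of 0.62 on the first day and 1.15 on the second. Clock peaked at CT21.7 with 0.39 on the first day and at CT18.4 with 0.43 on the second. The size of the difference in rhythm was 0.53 for Arntl (limma, adjusted p = 0.820) and 0.35 for Clock (adjusted p = 0.772), so neither passed. Over all probe sets limma called 0 (0%) and an ordinary F test 0, and 6.98% had an unadjusted p below 0.05. A component of 12 h, tested beside the 24-h terms, had an amplitude of 0.26 in Arntl (limma, adjusted p = 0.932) and 0.16 in Clock (adjusted p = 0.931). For that component limma called 0 probe sets (0%), an ordinary F test 1, and 5.60% had an unadjusted p below 0.05. Pools 24 h apart differed by a within-pair SD of 0.35 (log2) in Arntl and 0.21 in Clock, against SDs over the 12 pools of 0.79 and 0.33. Over all probe sets the medians of these SDs were 0.30 within pairs and 0.33 over pools, so Arntl varied more between circadian times than within them, relative to a typical probe set.

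Arntl and Clock encode partners of one complex, and their profiles were compared directly. The log2 ratio of Arntl to Clock within each pool, centred on its mean, ran from -1.35 at CT58 to 1.05 at CT46. The ratio was lowest in CT58 and CT62, where it was -1.35 and -0.95, and at CT34 it was -0.34. The 24-h cosine fitted to the ratio had its peak at CT23.3 and an amplitude of 0.61 ± 0.21 (SE) (R2 = 0.484, permutation test, one-sided, p = 0.0422, 1 comparison). The 2 rhythms therefore differed in this fit, but the p was above 0.05 without CT18, CT22, CT34, CT42, CT46, CT58 or CT62, each left out alone, where it ran from 0.0571 to 0.133. With the tissue markers as covariates the permutation p was 0.109 (amplitude 0.78 ± 0.43), and without CT18, CT34 and CT58 together it was 0.288 (0.44 ± 0.26). The fitted peak of Clock minus that of Arntl was -2.16 ± 1.21 h (SE), less than 2 SE from 0. Over the 12 pools the profiles correlated at r = 0.589 (rho = 0.538), as a description of values that share their arrays.

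The genes that act on Arntl came first among its partners in the loop. Nr1d2, the REV-ERB receptor that passed the test (limma, adjusted p = 1.19e-05), was near the mirror image of Arntl at the extremes of Arntl. Its intensity was 47.9 at CT22 and at the floor at CT46, the pools where Arntl was highest. It was 395 at CT34 and 489 at CT58, the pools where Arntl was lowest. Both genes were above their own log2 means at CT30 (Arntl by 0.32, Nr1d2 by 0.96) and at CT38 (by 0.14 and 0.54). The fitted peak of Nr1d2 came 11.2 ± 0.80 h (SE) after that of Arntl, and their r was -0.832 over 12 pools. Nr1d1 had its highest pools at CT30 (588) and CT54 (544), and its fitted peak came 7.32 ± 1.18 h after that of Arntl (adjusted p = 0.0627). Its r with Arntl was -0.126 and with Clock -0.637. Rora, an activator that binds the same RORE elements, had an amplitude of 0.07 ± 0.12 (adjusted p = 0.948).

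The targets and inhibitors of the pair were placed by the hours from the Arntl peak to their own. Of the 8 repressor and receptor genes on the array all passed the filter, 2 were called (Nr1d2 and Per2; 0.349% of all probe sets were) and 4 had an unadjusted p below 0.05 (9.96% of all). Their median amplitude was 0.65, against 0.18 for all probe sets. Per2, an inhibitor of the pair, peaked 15.4 ± 0.86 h after Arntl (limma, adjusted p = 0.00897), with 3 pools at the floor. Cry1, its partner in inhibition, peaked 20.3 ± 0.93 h after Arntl (adjusted p = 0.0604). Per1, Per3, Cry2 and Rora had unadjusted p-values above 0.05, so no hours are given for them.

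Of 18 genes listed as clock outputs, 12 were on the array and 10 passed the filter. Of these, 2 were called (0.349% of all probe sets were) and 6 had an unadjusted p below 0.05 (9.96% of all). Ppara, a receptor that controls fatty acid oxidation, peaked 7.87 ± 0.98 h after Arntl (limma, adjusted p = 0.0173). Dbp, a PAR bZIP factor, peaked 10.4 ± 1.05 h after Arntl (adjusted p = 0.0410), with 7 of 12 pools at the floor. The other 4 with an unadjusted p below 0.05 were Tef, a relative of Dbp, at 12.4 ± 0.83 h, Usp2, a deubiquitinating enzyme, at 14.0 ± 0.97 h, Nampt, an enzyme of NAD synthesis, at 15.9 ± 1.15 h, and Nfil3 at 23.2 ± 1.11 h. The median amplitude of the 10 was 0.68, against 0.18 over all probe sets. Nfil3, a repressor that binds D-boxes, thus lay within 1 SE of the Arntl peak. Its intensity was 318 at CT22 and 285 at CT46 but 52.3 at CT34 and at the floor at CT58. The highest Nfil3 pool was CT42 (363). CT54 was also at the floor, where Arntl was 134, so 2 pools were at the floor. Over the 12 pools Nfil3 had r = 0.732 with Arntl and 0.830 with Clock, and its adjusted p was 0.140 (limma). The probe set of Nfil3 is marked for cross-hybridisation, as is that of Cry1. Of the genes searched, only Arntl and Nfil3 had windows that held a RORE core word. The words were chosen with the Arntl windows in view, so the Arntl match was given in advance. A link between these words and the peak times was not tested.

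**Figure D4:**
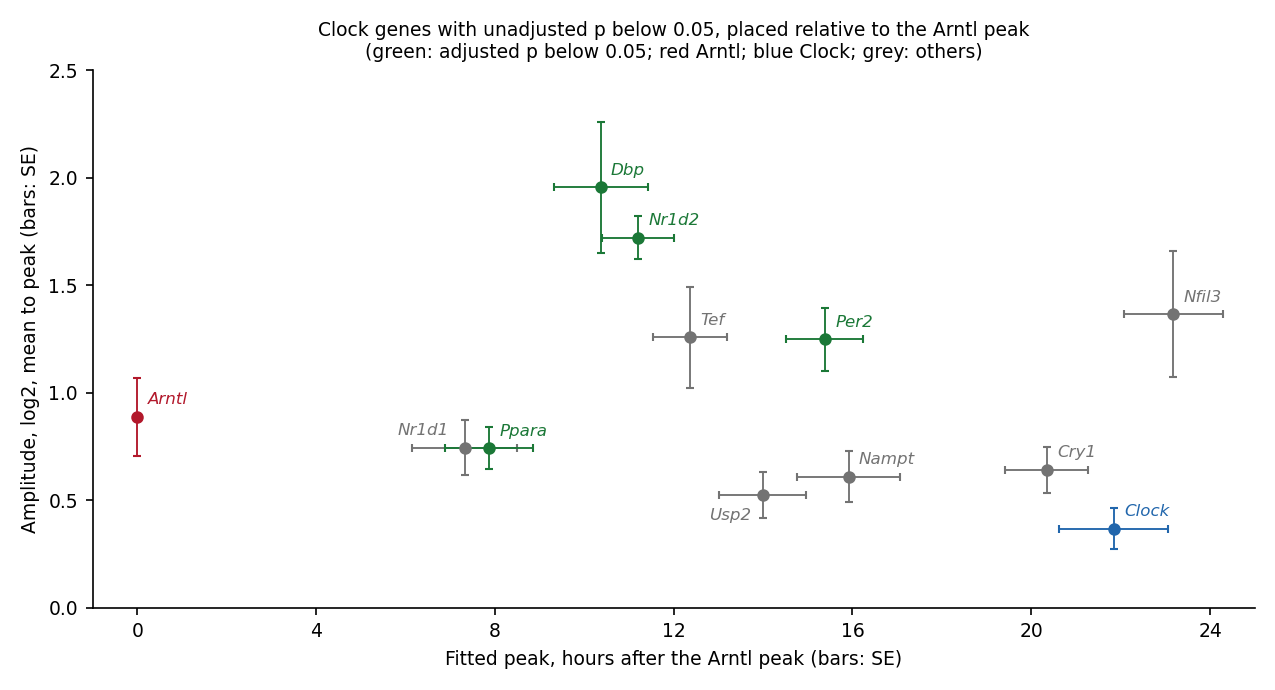
Amplitude (log2, mean to peak) against the hours from the fitted Arntl peak to the peak of each clock gene with an unadjusted p below 0.05; bars are SE, green marks an adjusted p below 0.05, red Arntl, blue Clock and grey the rest. Nr1d2 and Dbp stand 11.2 h and 10.4 h after Arntl, and Clock and Nfil3 stand before it in the next cycle at 21.8 h and 23.2 h.

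**Figure D5:**
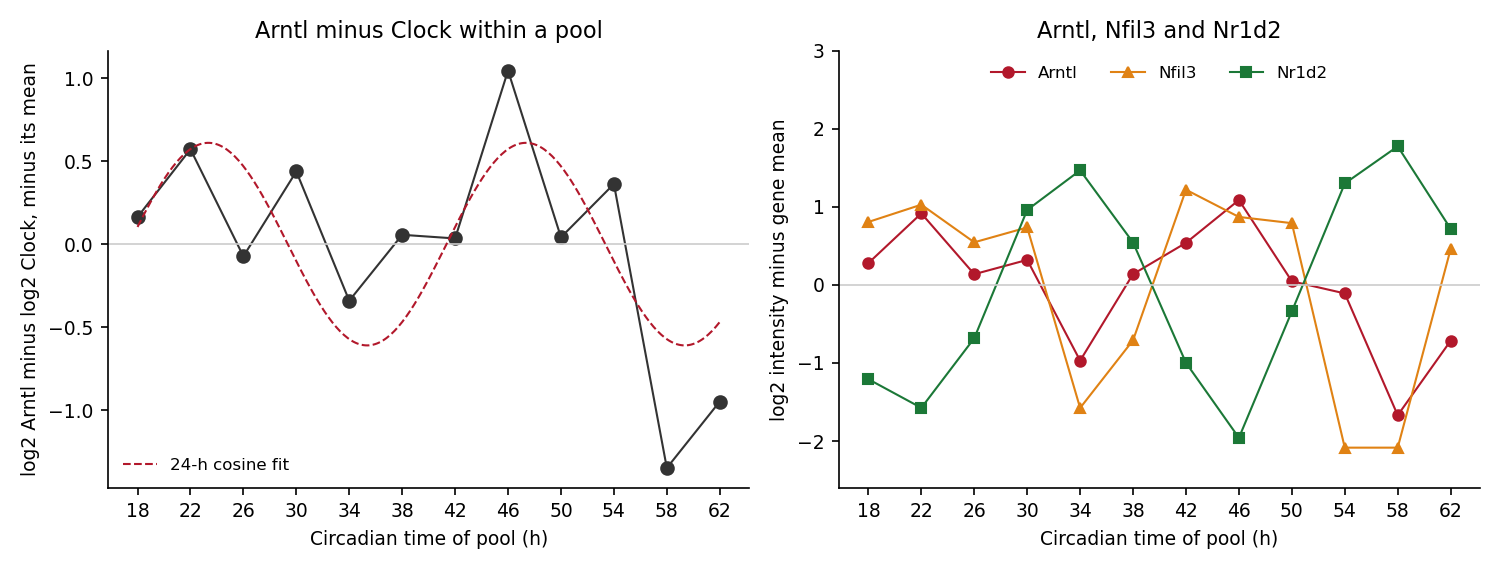
Left, log2 Arntl minus log2 Clock in each pool, centred on its mean, with the fitted 24-h cosine (dashed); right, log2 intensity minus the gene mean of Arntl, Nfil3 and Nr1d2, both against the circadian time of the pool in hours. The ratio is lowest at CT58 (-1.35) and highest at CT46 (1.05), and Nr1d2 is highest where Arntl is lowest.

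Other members of the bHLH-PAS family, which share the domains of the activators, gave no call, on few measured genes. Of 16 such genes 13 were on the array, 6 passed the filter, and 0 were called by limma or had an unadjusted p below 0.05. With shares of 0.349% and 9.96% over all probe sets, a count of 0 among 6 genes does not set them apart. Their median amplitude was 0.12, with a range of 0.11 to 0.25, against a median of 0.18 over all probe sets. The smallest p-values were those of Hif1a, the oxygen-regulated subunit of the hypoxia-inducible factor (0.11 ± 0.07, adjusted p = 0.720), and Ncoa3, a coactivator (0.25 ± 0.15, adjusted p = 0.735). Arnt, a general dimerisation partner of the family, had 0.20 ± 0.14 (adjusted p = 0.792).

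Genes whose products modify or bind the activator complex were also examined. The list held 50 gene symbols, of which Rack1 and Gnb2l1 name the same gene and neither was on the array. Of the 50, 36 were on the array and 31 passed the filter. By limma 0 were called (0.349% of all probe sets were) and 6 had an unadjusted p below 0.05 (9.96% of all). The median amplitude was 0.16, against 0.18 over all probe sets. Those 6 were Hsp90aa1, Id1, Gsk3a, Hdac1, Kmt2a and Sin3b. Hsp90aa1, a chaperone, had 0.58 ± 0.12 and a peak 20.4 h after Arntl (limma, adjusted p = 0.0999). Id1, a helix-loop-helix protein that lacks a DNA-binding region, had 0.61 ± 0.13 and a peak at CT5.9 (adjusted p = 0.140). The gene of the kinase Gsk3a had 0.20 ± 0.05 and a peak at CT9.5 (adjusted p = 0.312).

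Profiles most like those of the activators were sought among 2688 genes with a range of at least 1 (log2) and at most 3 pools at the floor, by Pearson r over the 12 pools. The genes most like Arntl were Tcte2 (r = 0.914), Pigr, the receptor that carries immunoglobulins across epithelia (0.899), Lat, an adaptor of T cell signalling (0.894), Gjb5, a gap junction protein (0.862), and Rap2b, a small GTPase (0.854). The most unlike were Coq10a (r = -0.909), Fzd4, a Wnt receptor (-0.902), Dgat1, an enzyme of triglyceride synthesis (-0.884), Crat, carnitine acetyltransferase (-0.875), and Slc27a1, a fatty acid transporter (-0.874). The median r with Arntl was 0.161 and the 99th percentile 0.791. Of these 10 genes 1 had passed the rhythm test, Dgat1 (limma, adjusted p = 0.0460).

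Among the profiles most like that of Clock were Zfp36l1, a factor of messenger RNA decay (r = 0.866), and Nfil3 (0.830). The most unlike were Slc5a6, a vitamin transporter (r = -0.894), Larp1 (-0.798) and Dgat1 (-0.796). The median r with Clock was 0.035. Dgat1 and no other gene stood on the lists of both activators. All these values come from the same 12 pools and arrays and are descriptions.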

How the data were processed

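The data were 13 arrays of 12 pools. The deposited table holds the authors' intensities on a linear scale; the sources used here name neither their software nor their scaling. Probe sets were named from GEO's platform annotation (10833 of 12422 with 1 gene, 396 with several, 1193 not listed), after 66 controls were left out. Intensities were floored at 36.7 and log2 was taken, CT18 arrays were averaged, and 7453 probe sets with a mean log2 of at least 5.60 entered the fits (limma 3.58.1, R 4.3.3) with a 24-h cosine and sine (moderated F test with trend, 9 residual degrees of freedom, Benjamini-Hochberg over all probe sets, threshold 0.05). Day, rhythm-by-day and 12-h terms were fitted likewise. Peak differences carry SEs by the delta method. The procedure was run on simulated data with independent noise for each probe set, no floor and no tissue differences between pools. That run does not show how the procedure performs where pools differ in tissue content. The number of arrays limits precision, and with 1 pool a time point, a p-value reflects only how far pools scatter from the fitted curve. The members, lists and tests were chosen with earlier results of these data known. Named genes were the members, the clock genes of the fixed lists, in the other lists those past the threshold or otherwise the 2 with the smallest p, and the 5 (Arntl) or 3 (Clock) most like and unlike profiles, of which 1 for Clock is not reported here; Arnt and the regulators other than Hsp90aa1 and Id1 were added after their values were seen. The alternatives were other floors, filters, normalizations, covariates and variance models, and leaving out arrays and pools.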

Additional observations from a re-analysis of the deposited data

How the results depend on the processing

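Over 27 alternatives the amplitude of Arntl was 0.62 to 1.16 with a peak between CT21.5 and CT22.5, and 1 passed. The 1.16 came from the fit with 6 circadian times as a factor. There the amplitude is the range of the time means divided by 2, with no cosine fitted. Leaving out a pool or a CT18 array gave 0.71 to 0.98. Clock was 0.31 to 0.42 and passed in 0 of 27. Npas2 could be fitted only on the generalised log scale (0.12, limma, adjusted p = 0.908), since elsewhere its pools are at the floor. The 26 probe sets past the threshold became 4 with no filter, 7 with arrays centred on their medians, 4 without the trend, 4 with the ordinary F test, 8 with tissue markers as covariates, 2 with 6 circadian times as a factor and 4 without CT18, CT34 and CT58 together, an alternative chosen after seeing the data; leaving out a pool or array gave 8 to 40 (40 without CT30, 17 without CT46, 14 without CT58, 13 without CT62, 10 without CT18 or CT34, 9 without CT42 and 8 without CT54). The ratio of Arntl to Clock no longer passed on the generalised log scale (0.43, permutation p = 0.0675), with day as covariate (0.61, p = 0.0540), with tissue markers (0.78) or without CT18, CT34 and CT58 (0.44), and ran from 0.45 to 0.71 when a pool or array was left out. The difference of Clock between days changed sign to 0.033 under quantile normalization and 0.040 with arrays centred on their medians, and ran from -0.081 to 0.065 when a pool or array was left out. The causes were not tested. The interval from the Arntl to the Nr1d2 peak was 10.8 to 11.7 h. No other probe set exists for a member, so that alternative was not run. With circadian time as a block, which pairs the pools 24 h apart and was chosen after seeing the data, the day difference was -0.27 ± 0.19 for Arntl (limma, adjusted p = 0.724) and -0.0026 ± 0.14 for Clock (adjusted p = 0.995). By replicate number, no paired analysis was possible because only CT18 has a second array.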
